A study of Mus musculus with 6 samples.

Results

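Testicular macrophage genes were followed in whole testis of mice that lacked H3f3b, one of 2 genes that encode the histone variant H3.3. The set was Csf1r, Cd68, Mrc1, Fcgr3, Aif1, C1qa, C1qb, C1qc, Cd14 and Cd163. Its probes were chosen by the gene symbol printed in the deposited array table. By symbol, 13 probes carried 9 of the 10 names, and C1qc was reached through its older symbol C1qg, which gave 14 of 45281 probes and 10 of 29523 named genes. Of these, 12 probes on 9 genes were detected on both arrays of at least 1 genotype and were tested, and both Cd163 probes were not.

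The 6 mice were of strain C57BL6J and comprised 2 homozygous knockouts (KO), 2 heterozygotes (HET, with 1 allele deleted) and 2 wild-type mice (WT), with 1 mouse of each genotype in each of 2 litters. The deletion was constitutive: a floxed H3f3b allele had been recombined with Zp3Cre, a Cre that is active in oocytes, so that every cell of a KO mouse, macrophages included, lacked the gene. No treatment was given. The source names and the design text place the mice at 8 weeks of age, whereas an age field gives an embryonic age. RNA of a single testis per mouse was hybridised to 1 Illumina bead array. H3f3b itself had log2 normalized signals of 4.43 and 4.28 in KO testes, 11.10 and 10.96 in HET testes and 11.79 and 11.73 in WT testes. Between 19809 and 21323 probes were detected per array (detection p under 0.05), which corresponded to a signal above 98.3 to 105.3. Levels below are deposited bead signals or log2 normalized signals, both of which are relative and can be set against each other only within 1 probe.

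Resident macrophages are the main immune cells of the testis. They lie between the seminiferous tubules in close contact with Leydig cells, the androgen-producing cells, and on the tubule wall near spermatogonia. Survival of the lineage depends on CSF1 acting through its receptor CSF1R, and lineage identity depends on the transcription factor PU.1, encoded by Spi1. The interstitial population is known for the mannose receptor CD206 (Mrc1) and for an immunosuppressive character. In RNA of a whole organ, fewer cells of a type and less RNA per cell cannot be told apart.

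In KO testes, transcripts of 2 macrophage surface receptors were higher than in WT testes. Mrc1, the mannose receptor that takes up glycoproteins, was 1.50-fold higher, and Fcgr3, an activating receptor for the constant part of IgG, was 1.63-fold higher. Aif1, which encodes the calcium- and actin-binding protein IBA1, was on the opposite side of WT, and its difference did not pass the threshold. The 3 chains of complement C1q, the colony-stimulating factor receptor Csf1r, the lysosomal glycoprotein Cd68 and the lipopolysaccharide co-receptor Cd14 showed no difference that passed the test. No gene of the set passed it in HET testes against WT testes or in KO testes against HET testes.

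The promoters of Mrc1, Fcgr3 and Aif1, the genes with the 3 smallest p-values in KO testes against WT testes, are shown because the first pair moved one way and the third the other. Each is the window of 250 bases before to 50 bases after a RefSeq transcript start in build GRCm38.p6, written 5′ to 3′ on the strand of the gene. Mrc1 lies on the plus strand (chr2:14229164-14229463), and Fcgr3 (chr1:171059354-171059653, the first of 2 listed starts) and Aif1 (chr17:35176003-35176302) lie on the minus strand. Capitals mark the letters GAGGAA or their reverse complement TTCCTC, a purine-rich core of the kind that PU.1 binds, searched on both strands.
Mrc1: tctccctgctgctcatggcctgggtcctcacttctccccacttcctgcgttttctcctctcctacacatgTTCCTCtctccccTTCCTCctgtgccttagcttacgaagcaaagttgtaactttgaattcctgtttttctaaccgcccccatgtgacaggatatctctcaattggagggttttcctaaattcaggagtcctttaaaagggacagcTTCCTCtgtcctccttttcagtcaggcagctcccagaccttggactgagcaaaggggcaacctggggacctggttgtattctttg
Fcgr3: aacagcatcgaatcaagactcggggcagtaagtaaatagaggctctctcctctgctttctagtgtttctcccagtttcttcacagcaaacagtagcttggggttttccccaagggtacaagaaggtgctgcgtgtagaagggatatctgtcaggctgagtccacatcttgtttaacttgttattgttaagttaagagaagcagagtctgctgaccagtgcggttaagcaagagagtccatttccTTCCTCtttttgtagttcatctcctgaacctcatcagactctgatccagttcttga
Aif1: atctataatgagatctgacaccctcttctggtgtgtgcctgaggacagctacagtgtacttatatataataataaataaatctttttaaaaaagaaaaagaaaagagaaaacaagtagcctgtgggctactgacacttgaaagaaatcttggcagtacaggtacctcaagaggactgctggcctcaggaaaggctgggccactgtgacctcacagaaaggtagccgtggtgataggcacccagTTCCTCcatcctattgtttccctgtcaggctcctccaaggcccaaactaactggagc
These letters occurred 3 times in the Mrc1 window and 1 time each in the Fcgr3 and Aif1 windows, always as the reverse complement. They also occurred in the windows of Cd68, C1qb and C1qc, and not in that of Cd163. The windows of Csf1r, C1qa and Cd14 were not read. Of all 32851 RefSeq mouse promoter windows of the same length, 28.3% held them, so a match is common and describes only the letters.

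**Figure D1:**
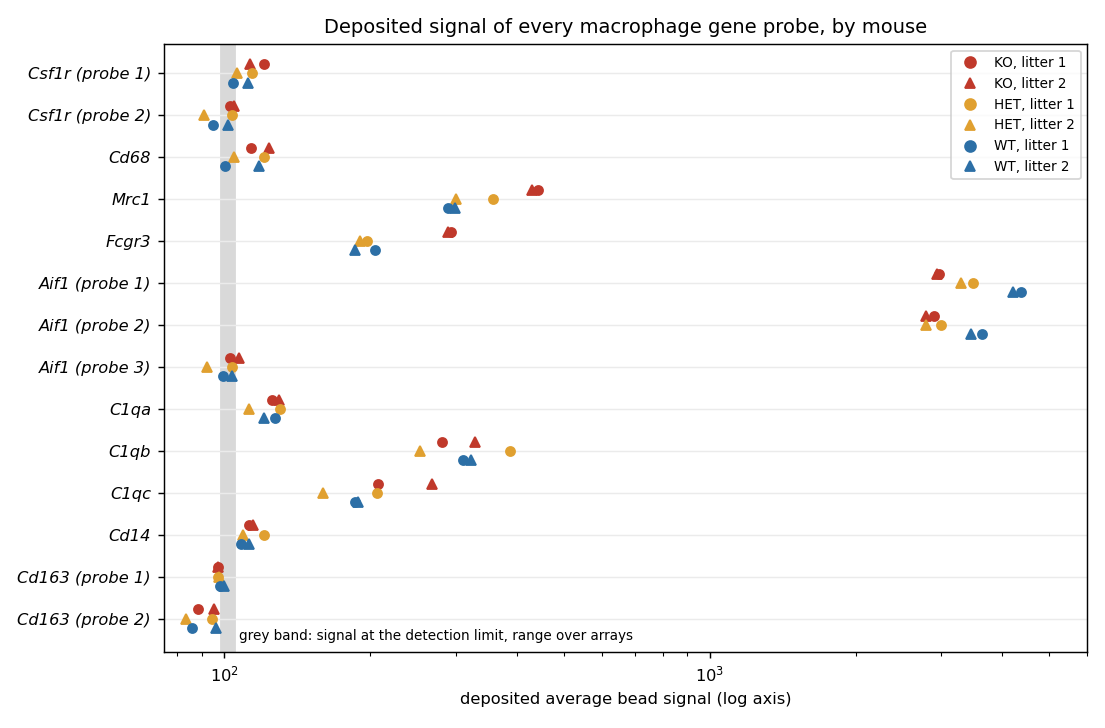
Deposited average bead signal of each of the 14 probes (rows) on a log axis, with 1 point per mouse, coloured by genotype and shaped by litter. The grey band spans the signal at the detection limit of the 6 arrays (98.3 to 105.3): the probes of Mrc1, Fcgr3, C1qb, C1qc and the first 2 probes of Aif1 stand clear of it, whereas the Cd163 probes lie in it or under it.

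Mrc1 was read by 1 probe. Its deposited signal was 442.7 and 429.5 in KO testes (litters 1 and 2), 358.5 and 299.6 in HET testes, and 289.3 and 298.4 in WT testes. Both KO mice were above every other mouse, and both HET mice were above both WT mice, narrowly so on the deposited scale. After normalization the log2 level was 8.38 ± 0.01 in KO testes, 8.05 ± 0.03 in HET testes and 7.80 ± 0.04 in WT testes (SD, n = 2 each). KO testes exceeded WT testes by 0.58 on the log2 scale (SE 0.13, 95% interval 0.29 to 0.87), with an adjusted p of 0.0338 in limma's moderated test. The difference was 0.62 in litter 1 and 0.55 in litter 2. The steps of the series KO, HET, WT were each smaller: 0.34 for KO against HET (adjusted p = 0.201) and 0.24 for HET against WT (adjusted p = 0.622). Although the 3 genotypes did not overlap, neither neighbouring pair passed the test. The KO against WT call was lost when any 1 of the 6 arrays was left out (adjusted p between 0.0531 and 0.132, difference between 0.55 and 0.61).

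Fcgr3 was also read by 1 probe. Its deposited signal was 293.3 and 288.8 in KO testes, 197.2 and 190.4 in HET testes, and 204.3 and 185.5 in WT testes. The KO mice lay apart from the other 4, and HET and WT mice were intermingled. Log2 levels were 7.64 ± 0.02 in KO testes, 6.94 ± 0.17 in HET testes and 6.93 ± 0.18 in WT testes (SD, n = 2 each). Between KO and WT testes the log2 difference was 0.71 (SE 0.15, 95% interval 0.37 to 1.05, limma adjusted p = 0.0314), made of 0.57 in litter 1 and 0.84 in litter 2. This call was lost without either KO array or either WT array (adjusted p between 0.0697 and 0.136, difference between 0.58 and 0.83) and when undetected probes were tested too (adjusted p = 0.06). Against HET testes the KO level was higher by 0.69 (95% interval 0.35 to 1.03, adjusted p = 0.0886). That comparison passed the threshold under 5 of the other processing settings. HET and WT testes differed by 0.02 (95% interval -0.32 to 0.35, adjusted p = 0.988). The extracellular part of the Fcgr3 product closely resembles that of Fcgr2b, the inhibitory IgG receptor, and the probe sequences were not used here. Fcgr2b differed between KO and WT testes by 0.04 at its brightest probe and by -0.06 at its other probe, and whether the probes tell the genes apart was not tested.

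Aif1 was read by 3 probes. The brightest gave 2968.4 and 2942.5 in KO testes, 3489.9 and 3291.6 in HET testes, and 4388.3 and 4224.6 in WT testes. These values were ordered KO, HET, WT from low to high without overlap, the reverse of the order of Mrc1. In log2 units the level was 11.49 ± 0.01 in KO testes, 11.75 ± 0.09 in HET testes and 11.99 ± 0.00 in WT testes (SD, n = 2 each). The KO minus WT difference was -0.50 (SE 0.13, 95% interval -0.79 to -0.20), -0.51 in litter 1 and -0.49 in litter 2, with a limma adjusted p of 0.0532. With litter as a block the adjusted p was 0.0486, and the call was also made with no background correction (0.00727), a normexp offset of 50 (0.00742), median scaling (0.0349), cyclic loess (0.0417), an intensity trend (0.00392) and the authors' scaled values (0.000946). Aif1 was not called when undetected probes were tested too, nor when any 1 array was left out (difference between -0.50 and -0.49). KO against HET (-0.26, adjusted p = 0.32) and HET against WT (-0.24, adjusted p = 0.634) did not pass the test.

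A further Aif1 probe gave 2903.6 and 2792.8 in KO testes, 2990.1 and 2790.7 in HET testes, and 3641.9 and 3454.2 in WT testes. On this probe both KO and HET mice lay under the WT mice, and KO and HET mice overlapped. Its KO minus WT difference was -0.28 (adjusted p = 0.204). The remaining probe stayed near the detection limit, at 102.9 and 107.4 in KO testes, 103.6 and 92.1 in HET testes, and 99.4 and 103.5 in WT testes, and its difference of 0.12 had an adjusted p of 0.637. The mean over the 3 probes differed by -0.22 between KO and WT testes (adjusted p = 0.244). In rat testis IBA1 is also found in spermatids, so Aif1 in whole testis need not come from macrophages. The summed signal of the germ cell markers, given below, was 125500 to 125700 in KO testes and 131700 to 133600 in WT testes, with 0 of 8 markers called. This sum mostly follows its brightest markers, Prm1 (log2 mean 15.42 in KO and 15.46 in WT testes) and Ldhc (15.43 and 15.46). Both lie at the top of the arrays, where quantile normalization gives each rank the same value on every array. The value 15.50 recurs for both genes in KO and WT testes. Their near-equality was thus largely set by that step, and the sum cannot show whether germ cell RNA differed. Single markers differed in direction, with Dazl at 0.49, Ddx4 at -0.37 and Acrv1 at -0.52, and 2 of the 8 differences were positive. The part of germ cells in the Aif1 values was not tested.

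**Figure D2:**
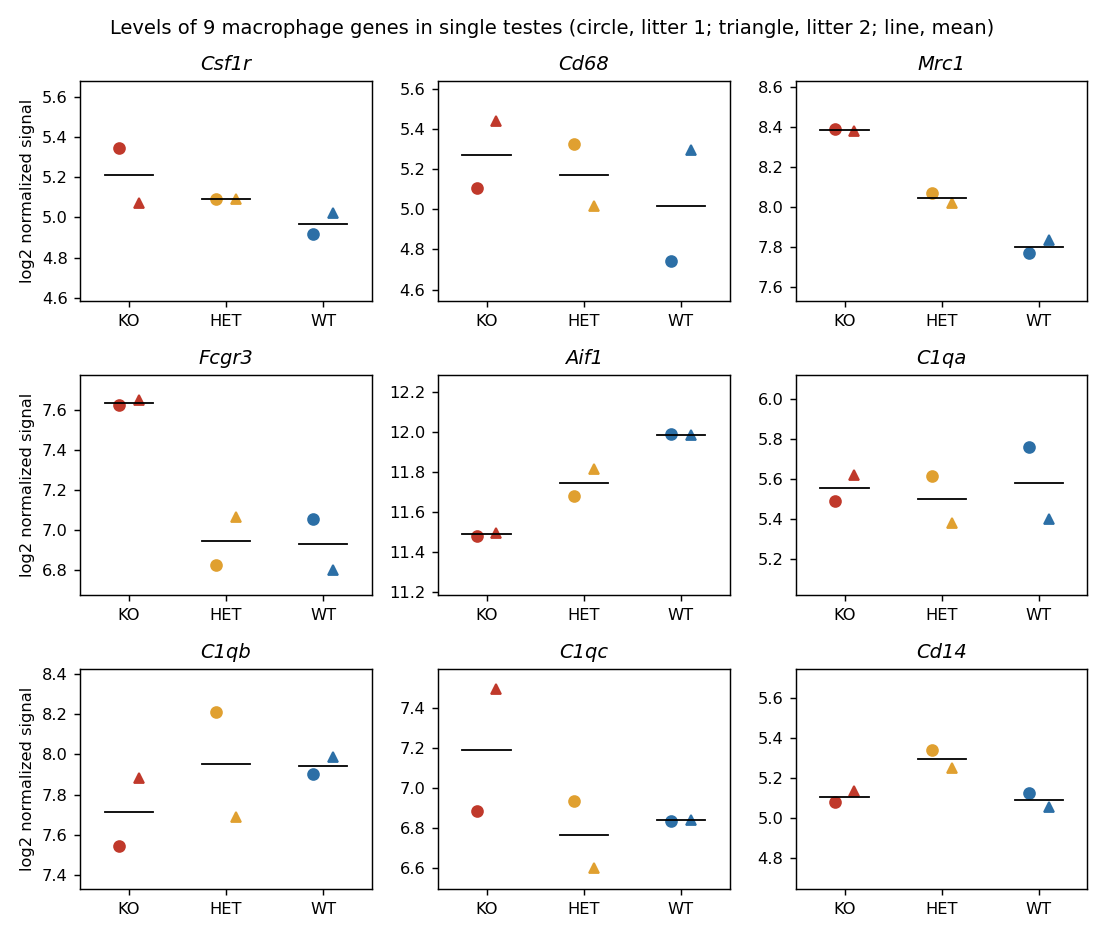
Log2 normalized signal of the brightest probe of each of the 9 tested genes, by genotype, with 1 point per testis (circle, litter 1, triangle, litter 2) and a line at the mean. All panels span the same log2 range: KO points lie above the WT points for Csf1r, Mrc1, Fcgr3 and C1qc and under them for Aif1 and C1qb, and overlap them for Cd68, C1qa and Cd14.

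C1qa, C1qb and C1qc encode the 3 chains that together form C1q, the recognition unit of the classical complement pathway, and they are neighbouring genes. Macrophages are the main source of C1q. C1qb had signals of 281.1 and 328.3 in KO testes, 388.4 and 253.5 in HET testes, and 309.9 and 322.4 in WT testes. On this deposited scale the HET mice alone spanned the whole range. After normalization the lowest log2 level was that of the KO mouse of litter 1 (7.54), under the HET mouse of litter 2 (7.69). Its KO minus WT difference was -0.23 (95% interval -0.67 to 0.20, adjusted p = 0.471). C1qc had 207.5 and 268.2 in KO testes, 206.8 and 159.5 in HET testes, and 186.0 and 188.3 in WT testes. Both KO mice were above both WT mice, but the excess was 0.05 in litter 1 and 0.65 in litter 2, so it rested on the KO mouse of litter 2. The C1qc difference of 0.35 (95% interval -0.11 to 0.81) had an adjusted p of 0.299, and 0.0465 on the authors' scaled values. C1qa was dimmer, with 125.3 and 129.6 in KO testes, 130.1 and 112.3 in HET testes, and 127.0 and 120.7 in WT testes. Its genotypes overlapped throughout, and the KO minus WT difference was -0.02 (95% interval -0.39 to 0.34, adjusted p = 0.939). No order of genotypes is given for the chains, since C1qb differed by 0.01 between HET and WT testes and C1qa by -0.02 between KO and WT testes, and both signs turned under another scaling (-0.0107 for C1qb with cyclic loess, 0.0879 for C1qa with median scaling).

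Csf1r, the receptor on which the lineage depends, was close to the detection limit. Its brighter probe gave 120.6 and 113.0 in KO testes, 114.3 and 106.2 in HET testes, and 104.0 and 111.7 in WT testes. KO exceeded WT testes by 0.24 on the log2 scale (95% interval -0.08 to 0.56, adjusted p = 0.31), by 0.43 in litter 1 and 0.05 in litter 2. The dimmer probe was detected in both KO testes (102.6 and 104.6) and in no HET or WT testis, where it was not well above background. As a bound on the measured means, it was at least 1.01-fold higher in KO than in WT testes and at least 1.03-fold higher in KO than in HET testes. Neither difference passed limma's test (adjusted p = 0.396, 95% interval -0.12 to 0.53, and adjusted p = 0.441, 95% interval -0.11 to 0.55). The undetected HET testis of litter 1 read 103.7 (detection p 0.0502), above the KO testis of litter 1. Here the bound is the KO mean against the lowest detected level of each array or the probe's own value, whichever was higher.

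Cd68, a glycoprotein of lysosomal and endosomal membranes, gave 113.3 and 123.4 in KO testes, 120.5 and 104.8 in HET testes, and 100.5 and 117.9 in WT testes. All genotypes overlapped, and the KO minus WT difference was 0.26 with a 95% interval of -0.22 to 0.73 (adjusted p = 0.461). Cd14, which hands lipopolysaccharide to Toll-like receptor 4, gave 112.4 and 114.5 in KO testes, 120.9 and 109.5 in HET testes, and 108.5 and 112.3 in WT testes. For Cd14 the HET testes had the highest normalized mean, 5.29 ± 0.06, against 5.11 ± 0.04 in KO testes and 5.09 ± 0.05 in WT testes (SD, n = 2 each). No Cd14 comparison passed the test, and the KO minus WT interval ran from -0.28 to 0.31. Cd163, the scavenger receptor for haemoglobin bound to haptoglobin, was not detected on any of the 6 arrays at either probe. Its brighter probe read 97.3 and 97.2 in KO testes, 96.9 and 97.7 in HET testes, and 98.0 and 100 in WT testes, and no fold is given.

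Read as a set, 2 of the 9 tested genes were higher and 0 were lower in KO testes than in WT testes, where 7.57% of all 14524 named genes passed the test (2.64% higher and 4.94% lower). With 9 genes that were chosen with results of these data known, these 2 calls are not read as an excess. The split between directions over all probes depended on the scaling: 32.6% of called probes were higher in KO testes, but 53.9% with median scaling and 68.4% on the authors' scaled values. The log2 differences of the 9 genes ran from -0.50 (Aif1) to 0.71 (Fcgr3), with 6 of them positive. Their median was 0.24, or 0.25 for the 8 genes other than Aif1, beside a median of 0.05 over all genes (5th to 95th percentile -0.63 to 0.50). On the normalized scale, KO and WT testes did not overlap for 6 genes (Csf1r, Mrc1, Fcgr3 and C1qc higher, Aif1 and C1qb lower), where 58.7% of all genes did not overlap (33.1% higher and 25.6% lower), so this count is near the background.

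With 1 allele lost, no difference passed the test. In HET testes against WT testes limma called 0 of the 9 genes, with a background of 0% over all genes, and 0 of them had an unadjusted p under 0.05. The 9 differences had a median of 0.02 and ran from -0.24 (Aif1) to 0.24 (Mrc1), and the smallest adjusted p was 0.622, that of Mrc1. HET and WT testes did not overlap for Csf1r, Mrc1 and Cd14 (higher) and Aif1 (lower), which makes 4 of 9 where 39.8% of all genes did not overlap (21.5% higher and 18.3% lower). In KO testes against HET testes limma again called 0 genes, with 0.138% called over all genes, and 2 of the 9 (Fcgr3 and Mrc1) had an unadjusted p under 0.05. Here the median difference was 0.10, and the groups did not overlap for Mrc1 and Fcgr3 (higher) and Aif1 and Cd14 (lower), beside 53.6% of all genes (29% higher and 24.6% lower). KO against WT, KO against HET and HET against WT share their samples in pairs and are not independent.

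**Figure D3:**
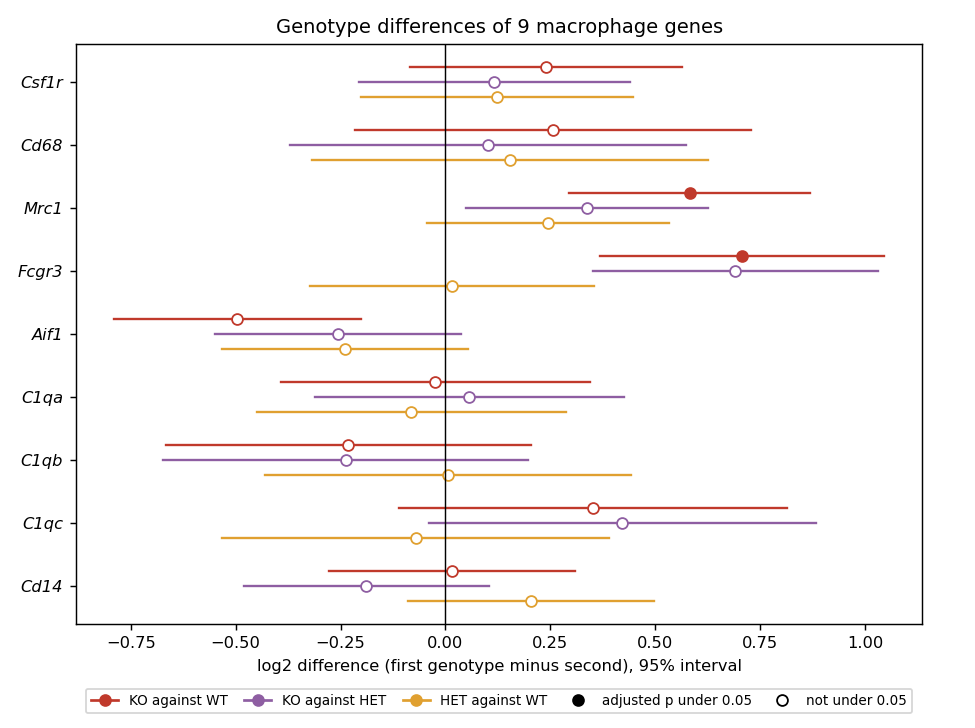
Log2 differences of the brightest probe of each gene with 95% intervals from limma, for KO against WT, KO against HET and HET against WT. Filled points have an adjusted p under 0.05, which only Mrc1 and Fcgr3 reached, both in KO against WT.

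Between the litters, with genotype as a covariate, limma called 0 of the 9 genes (0% over all genes), and 0 had an unadjusted p under 0.05. Litter 2 minus litter 1 differences ran from -0.15 (C1qa) to 0.20 (Cd68). Within single genotypes the 2 mice, 1 from each litter, differed more for some genes. In KO testes C1qc was higher by 0.61 in litter 2 than in litter 1, and in WT testes Cd68 was higher by 0.55. In HET testes C1qb differed by -0.52 between litter 2 and litter 1. Mrc1 and the brightest Aif1 probe differed by at most 0.06 and 0.13 between the litters in every genotype.

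**Figure D4:**
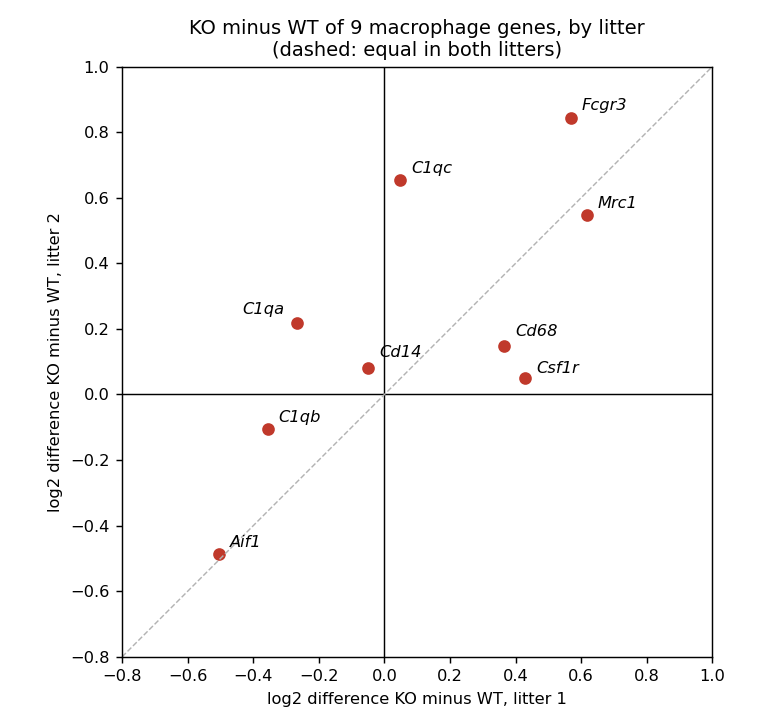
KO minus WT log2 difference of each of the 9 genes in litter 1 (x axis) and litter 2 (y axis), 1 point per gene, with a dashed line where both are equal. Fcgr3, Mrc1 and Aif1 lie far from 0 in both litters, C1qc is near 0 in litter 1 only, and C1qa and Cd14 differ in sign between the litters.

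Across the 6 testes the genes of the set did not follow 1 pattern. Pearson's r was 0.844 between Mrc1 and Fcgr3, -0.987 between Aif1 and Mrc1 and -0.791 between Aif1 and Fcgr3, over 6 arrays that fall into 3 genotypes, so these coefficients mainly restate the genotype order. Between the C1q chains r was lower, at 0.199 for C1qb and C1qc, 0.366 for C1qb and C1qa and 0.426 for C1qc and C1qa. Among 10357 other detected genes, those closest to Mrc1 were Snai2 (r = 0.997), Mtln, Palb2 and Prss50. Closest to Fcgr3 were Hsd17b12 (r = 0.992), Rap1b, Akirin1 and Zrsr2. P4ha2 (r = 0.999), Clec4b1, Slc14a2 and D3Ertd751e were closest to Aif1. The mean z-score of the 9 genes was followed most closely by Mplkip (r = 0.984), Zfas1, Ribc2, Mtg2, Trappc6a and Elp2. With genotype means removed, Sgtb (r = 0.999), Gnb2, Ppp6r3, Dleu2, Psmb7 and Tbcb were closest to it. With 6 arrays such values are common. An r above 0.9 was reached by 93 genes for the mean z-score, 377 for the mean z-score with genotype means removed, 771 for Mrc1, 393 for Fcgr3 and 579 for Aif1.

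Other genes of macrophages and monocytes were read for comparison. Of 35 such genes 34 had a probe and 18 were tested, and 10 were detected on no array, among them the integrin Itgam and the sialoadhesin Siglec1. In KO testes against WT testes 1 of the 18 rose and 0 fell, where 7.57% of all genes were called. Of the 18 differences 17 were positive, where 56% of all genes were, and their median was 0.28. The gene that rose was Lyz1, a lysozyme, with log2 levels of 10.28 and 10.53 in KO testes, 9.73 and 9.55 in HET testes, and 9.70 and 9.49 in WT testes. The Lyz1 difference was 0.81 (SE 0.15, adjusted p = 0.0232), but its other probe differed by -0.29. The call was lost without any 1 KO or WT array and when undetected probes were tested too. Lyz1 and Lyz2 are near-identical copies that a probe may not tell apart, and Lyz2 differed by 0.56 (adjusted p = 0.1). Lgmn, a lysosomal protease, differed by 0.62 (adjusted p = 0.0512) and Hk3, a hexokinase of myeloid cells, by 0.62 (adjusted p = 0.0527). Adgre1, which encodes a widely used macrophage surface marker of the adhesion receptor family, had log2 levels of 5.08 and 5.26 in KO testes, 5.10 and 5.0 in HET testes, and 5.15 and 4.82 in WT testes. Its difference of 0.18 did not pass the test (adjusted p = 0.487). In each of 8 other processing settings 17 of the 18 differences stayed positive, with 0 to 6 of them called, and with 1 array left out 14 to 17 were positive and 0 to 2 were called.

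Around CSF1R, 8 of 18 growth factors and lineage regulators were tested, and 0 rose and 1 fell in KO testes against WT testes. Over all genes 2.64% were called higher and 4.94% lower. The one that fell was Klf4, a transcription factor of monocyte differentiation and of many other cell types, at -0.77 (SE 0.16, adjusted p = 0.0295), with its other probes at -0.80 and -0.75. Without any 1 KO or WT array, and with undetected probes tested too, this call was lost. Maf, a transcription factor of tissue macrophages, was not well above background in WT testes, so that its KO level gives a bound of at least 1.2-fold higher (adjusted p = 0.139). Csf3, a granulocyte growth factor, differed by 0.13 (adjusted p = 0.567). Spi1, Il34, Csf2, Irf5, Cebpa and Runx1 were detected on no array.

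Among 12 Fc receptors and their signalling partners 5 were tested, and 1 rose and 0 fell, beside 2.64% of all genes higher and 4.94% lower. The riser was Fcgrt, the neonatal Fc receptor that recycles IgG and is not restricted to macrophages, at 0.58 (SE 0.14, adjusted p = 0.0428), with its other probe at 0.34. This call was lost without any 1 of the 6 arrays, with cyclic loess and with undetected probes tested too. Fcer1g, the signalling chain on which the Fcgr3 product depends, differed by 0.20 (adjusted p = 0.426), and Ptpn6, a phosphatase that dampens receptor signalling, by -0.15 (adjusted p = 0.521). Of 15 complement genes other than C1q, 9 were tested, and 2 rose and 1 fell. Those that rose were C2, a protease of the classical pathway, at 0.71 (SE 0.14, adjusted p = 0.0265), and Cd59a, which blocks the membrane attack complex, at 0.75 (SE 0.15, adjusted p = 0.028). Cd55, which speeds the decay of complement convertases, fell by 0.71 (SE 0.16, adjusted p = 0.0355). The Cd55 call was lost without any 1 of the 6 arrays, and those of C2 and Cd59a without any 1 KO or WT array. With undetected probes tested too, only C2 of the complement genes was called. C3, the central component, differed by -0.72 with an adjusted p of 0.132. Cfd, the alternative-pathway protease that adipocytes secrete as adipsin, differed by -0.99, but its values spread widely within genotypes (SD 1.47 in KO testes, 0.98 in HET testes and 0.80 in WT testes, adjusted p = 0.357). This spread followed the litters, with litter 2 lower in every genotype. Log2 levels in litters 1 and 2 were 7.38 and 5.29 in KO testes, 8.15 and 6.76 in HET testes, and 7.89 and 6.76 in WT testes. With litter as a block in limma, Cfd was called lower in KO than in WT testes (adjusted p = 0.0355).

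The next lists are read in KO against WT, beside 2.64% of all genes called higher and 4.94% called lower. Near Cd14, 9 of 15 genes of the Toll-like receptor 4 pathway were tested and limma called 0 (3 with an unadjusted p under 0.05), with a median of 0.15. The kinase Irak1 differed by 0.49 (adjusted p = 0.0934), with its other probe at -0.25, and the lipopolysaccharide-binding protein Lbp by 0.41 (adjusted p = 0.107). Near Cd163, 9 of 12 genes of haemoglobin and iron handling and scavenger receptors were tested, limma called 0 (3 with an unadjusted p under 0.05), and the median was 0.05. Blvrb, a biliverdin reductase, differed by 0.58 (adjusted p = 0.0513) and the scavenger receptor Stab2 by -0.34 (adjusted p = 0.167). Of 12 macrophage chemokines 6 were tested and limma called 0 (3 with an unadjusted p under 0.05), with a median of -0.47. Ccl4 was detected in neither KO testis and in both WT testes, which bounds it as at least 1.22-fold lower in KO testes (adjusted p = 0.0619), and Cxcl16 differed by -0.54 (adjusted p = 0.0651), with its other probe at 0.14. Of 9 genes of MHC class II antigen presentation 7 were tested, and 0 rose and 1 fell, with a median of -0.47. The gene that fell was H2-DMb1, a chain of the peptide-exchange factor H2-DM, at -0.74 (SE 0.13, adjusted p = 0.0213), a call that was lost without any 1 KO or WT array. Cd74, the invariant chain, had log2 levels of 6.56 ± 0.08 in KO testes, 7.58 ± 1.00 in HET testes and 7.28 ± 0.22 in WT testes (SD, n = 2 each). Its KO minus WT difference of -0.72 did not pass the test (adjusted p = 0.229), and its other probe differed by -0.69. That test uses 1 spread shared by all genotypes, which for Cd74 was widest in the HET testes. H2-Ab1, a chain of the class II molecule I-A, differed by -0.47 (adjusted p = 0.335). In HET against WT and in KO against HET limma called 0 of the 71 tested genes of these 8 lists, where 5 and 19 genes had an unadjusted p under 0.05.

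Markers of other testis cells were read in the same way, beside 2.64% of all genes called higher and 4.94% called lower in KO against WT. Of 10 Leydig cell markers 7 were tested, and 2 rose (Cyp17a1 by 0.76 and Vcam1 by 0.67) and 0 fell, with a median of 0.41. Their summed normalized signal was 15970 to 16970 in KO testes, 8908 to 12010 in HET testes and 10480 to 11370 in WT testes. Of 11 Sertoli cell markers 10 were tested, and 5 rose (Inha, Clu, Dhh, Cldn11 and Wt1, by 0.59 to 0.77) and 0 fell, with sums of 27470 to 28410 in KO testes, 20970 to 21620 in HET testes and 18380 to 18820 in WT testes. Of 10 germ cell markers 8 were tested and limma called 0 (2 with an unadjusted p under 0.05), with a median of -0.07 and sums of 125500 to 125700 in KO testes, 130900 to 131400 in HET testes and 131700 to 133600 in WT testes. Each sum adds signals of different probes and mostly follows the brightest: Cyp17a1 and Insl3 for Leydig cells, Clu and Cldn11 for Sertoli cells, Prm1 and Ldhc for germ cells. Levels of Prm1 and Ldhc, at the top of the arrays, were largely set by quantile normalization. The markers not detected on any array were Hsd3b1 and Hsd3b6 for Leydig cells, Gata4 for Sertoli cells, and Sycp3 and Stra8 for germ cells. All Leydig and Sertoli calls were lost without any 1 KO or WT array, and those of Cldn11 and Wt1 also without either HET array. Cyp17a1 was also not called with median scaling, cyclic loess or undetected probes included, nor Clu and Cldn11 with median scaling, nor Inha, Dhh and Wt1 with undetected probes included. Other somatic markers had KO minus WT medians of -0.07 for 6 endothelial markers and -0.75 for 3 adipocyte markers. The part of tissue composition in the Mrc1 and Fcgr3 differences was not tested.

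**Figure D5:**
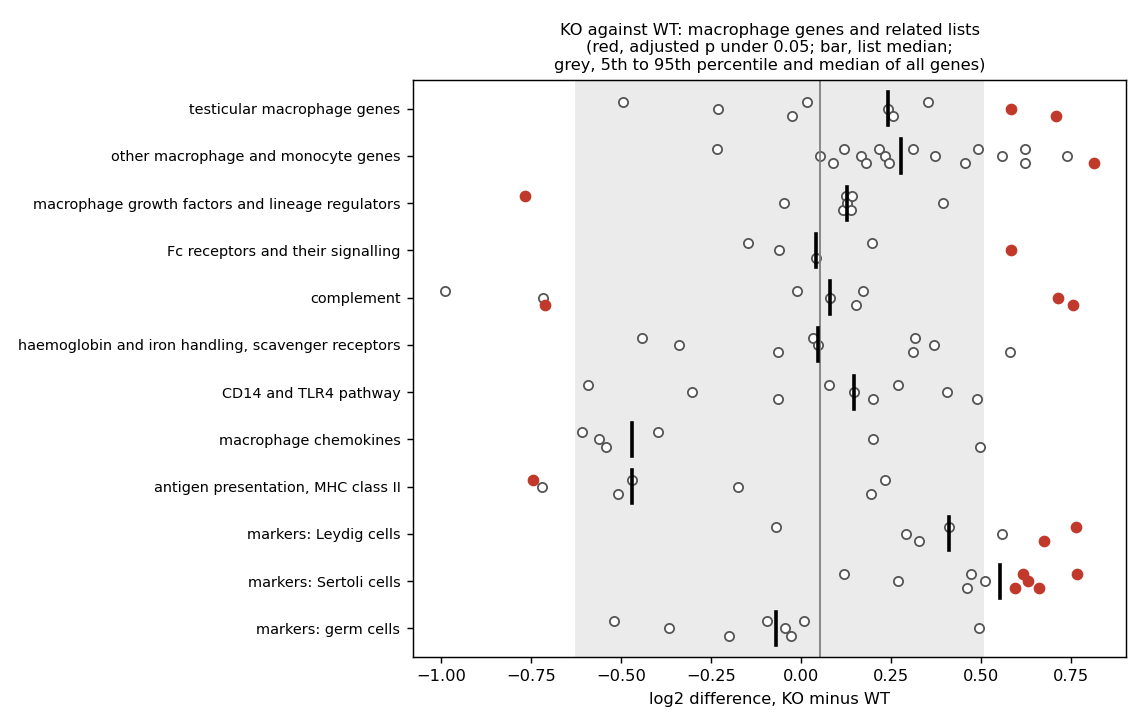
KO minus WT log2 difference of every tested gene (1 point each) in the macrophage set, in 8 lists of related genes and in 3 marker lists, with list medians as bars and calls in red. The grey area spans the 5th to 95th percentile of all genes (-0.63 to 0.50), with a centre line at 0.05. Medians of the macrophage set (0.24) and of the other macrophage and monocyte genes (0.28) lie right of this line. Those of the Fc receptor list (0.04) and the haemoglobin and iron list (0.05) lie close to it, and the chemokine and MHC class II medians lie at -0.47.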

How the data were processed

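Total RNA of 1 testis from each of 6 mice was amplified to biotin-labelled cRNA, per the labels' protocols. Per the file headers, each array has an intensity (average bead signal, linear scale) and a detection p-value at 45281 probes. Per the submitters' processing notes these deposited values came from GenomeStudio, version not stated; of the bead-level steps, the sources used here say nothing. A deposited table of the authors' scaled intensity values, each array multiplied by 1 constant between 0.96 and 1.1, served as an alternative.

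Background was corrected with normexp using detection p-values (limma 3.58.1 in R 4.3.3, neqc, offset 16), followed by quantile normalization and log2. Probes entered the tests where both arrays of some genotype had a detection p under 0.05 (20573 probes, 14524 named genes), and of several probes of a gene the one with the highest mean was read. Symbols were updated through RefSeq older names (8145 of 31508). All 6 arrays entered 1 limma fit (lmFit, eBayes, two-sided) with genotype as the term, or litter with genotype as covariate. The spread had 3 residual and 6.23 prior degrees of freedom. Benjamini-Hochberg adjustment ran over all kept probes, and a call needs an adjusted p under 0.05. In data simulated for KO against WT over 20573 probes, 41.8% of changes of 0.6 on the log2 scale were called, 97% of changes of 1 and 100% of changes of 2. With 2 arrays per genotype the number of arrays limits the precision.

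The genes of the set and of the 19 other lists were chosen with earlier results of these data known. Named from the other lists were all called genes and, outside the marker lists, the 2 uncalled genes with the smallest p in KO against WT. Adgre1, Lyz2 and Fcgr2b were named after their values were seen. Likeness was Pearson's r over the 6 arrays, with 6 genes named for the mean z-score and, added after seeing the data, 4 for single genes. The pairing of mice across genotypes comes from the labels, where equal replicate numbers mean the same litter. Deviations of same-litter mice correlated at 0.091 (HET and WT), 0.134 (KO and WT) and 0.168 (KO and HET) across probes. The alternatives were other background corrections and scalings, no filter, an intensity trend, litter as a block, the mean over probes, and each array left out.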

Additional observations from a re-analysis of the deposited data

Results flagged for a closer look

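Some differences of the macrophage genes had opposite signs in the 2 litters, which rests on 1 mouse per genotype and litter, and the difference between litters was not tested. For KO minus WT these were C1qa, at -0.27 in litter 1 and 0.22 in litter 2, and Cd14, at -0.0493 and 0.0815 in the same order of litters. HET minus WT changed sign for Cd68 (0.58 in litter 1 and -0.28 in litter 2), Fcgr3 (-0.23 and 0.26), C1qb (0.31 and -0.30) and C1qc (0.10 and -0.24). KO minus HET changed sign for Csf1r (0.25 in litter 1 and -0.0177 in litter 2), Cd68 (-0.22 and 0.42), C1qa (-0.13 and 0.24), C1qb (-0.67 and 0.19) and C1qc (-0.0495 and 0.89). None of these 11 comparisons passed the test over both litters in limma. Csf1r, Cd68, C1qa and Cd14 had deposited signals of at most 130.1, beside detection limits of 98.3 to 105.3. Mrc1 and the brightest Aif1 probe appear in none of these pairs.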

How the results depend on the processing

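In KO against WT the number of macrophage genes called was 2 as reported, 4 on the authors' scaled values and 1 with undetected probes included, and it ranged from 0 to 1 with 1 array left out; there a lone mouse is assumed to vary like the other groups. In KO against HET, where 0 were called, the count was 1 with no background correction, 1 with a normexp offset of 50, 1 with median scaling, 1 with an intensity trend (Fcgr3 each time) and 2 on the authors' scaled values (Fcgr3 and Mrc1). In HET against WT and between litters it was 0 in every setting tried. Litter as a replicate block gave 3 calls in KO against WT, adding Aif1 (adjusted p = 0.0486), and changed no other call of the set. The same 3 genes, 2 higher and 1 lower, were called with no background correction, an offset of 50, median scaling, cyclic loess and an intensity trend. Over all probes in KO against WT, 1412 were called as reported, 2854 with no background correction (44.5% of them higher), 3004 with an offset of 50 (43.4% higher), 4292 on the authors' values, 528 with undetected probes included, 2784 with an intensity trend and 22 to 923 with 1 array left out. In KO against HET the 23 calls became 780, 952, 118, 1685, 2, 866 and 65 with no background correction, an offset of 50, median scaling, the authors' values, undetected probes, an intensity trend and the block. Median scaling moved the median of all probes to 0.11 in KO against WT, and its values are to be read against that.

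Signs turned, always for differences that did not pass the test. With median scaling they became 0.0879 for C1qa in KO against WT and, between litters, -0.0818 for Mrc1, -0.0926 for Fcgr3, -0.0034 for Aif1 and -0.0046 for C1qc. With cyclic loess they became -0.0163 for Cd14 in KO against WT, and -0.001 for Fcgr3 and -0.0107 for C1qb in HET against WT. On the authors' values they became 0.0465 for C1qa in KO against WT, 0.0237 for C1qa and 0.0148 for C1qc in HET against WT, and 0.0424 for Csf1r, -0.0114 for Mrc1 and 0.052 for Cd14 between litters. With 1 array left out, KO against WT ranged from -0.20 to 0.15 for C1qa, -0.0207 to 0.0529 for Cd14 and -0.0217 to 0.53 for Cd68. KO against HET ranged from -0.0195 to 0.25 for Csf1r, -0.0666 to 0.27 for Cd68, -0.0603 to 0.17 for C1qa and -0.50 to 0.0241 for C1qb. HET against WT ranged from -0.12 to 0.43 for Cd68, -0.11 to 0.14 for Fcgr3, -0.26 to 0.10 for C1qa, -0.26 to 0.27 for C1qb and -0.24 to 0.10 for C1qc. Litter differences ranged from -0.14 to 0.0517 for Csf1r, -0.11 to 0.13 for Fcgr3, -0.0283 to 0.0278 for Mrc1, -0.22 to 0.21 for C1qb and -0.17 to 0.31 for C1qc. The cause was not tested. Signals of Csf1r, Cd68, C1qa and Cd14 lay close to the detection limit, which limits what can be seen of them.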

Other observations

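Markers of other leukocytes were mostly undetected. They are read beside 2.64% of all genes called higher and 4.94% called lower in KO against WT. Of 13 lymphocyte markers 5 were tested and 8 were detected on no array, among them Cd3g, Cd8a and Cd79a. Lck, a kinase of T cells, was the only called one, with log2 levels of 6.98 ± 0.17 in KO testes, 6.04 ± 0.31 in HET testes and 5.65 ± 0.10 in WT testes (SD, n = 2 each), and a KO minus WT difference of 1.33 (limma adjusted p = 0.01). The call was lost without the KO array of litter 1 or the WT array of litter 2. Of 10 neutrophil and mast cell markers 1 was tested, Mpo, a peroxidase of granulocytes, and it fell by 0.84 (adjusted p = 0.0204), a call lost without any 1 KO or WT array. The other 3 Mpo probes differed by -0.18, -0.42 and -0.64, and 1 of these was called. Of 5 dendritic cell markers 2 were tested and limma called 0 (0 with an unadjusted p under 0.05), with a median KO minus WT difference of -0.12.

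Outside the immune lineages, 4 peritubular muscle markers (median 0.24), 6 endothelial markers (median -0.07) and 2 blood markers (median -0.31) were tested in KO against WT, and limma called 0 of them, while 1 of each group had an unadjusted p under 0.05. These are read at the brightest probe, and the other probe of Myl9, a smooth muscle myosin light chain, differed by 0.58 and was called. Of 3 tested adipocyte markers 2 fell, Adipoq by 0.75 (adjusted p = 0.0222) and Retn, which was not well above background in KO testes and was at least 1.36-fold lower there (adjusted p = 0.0307), with sums of 354.3 to 501.1 in KO testes, 623.3 to 739.2 in HET testes and 658.5 to 774.1 in WT testes. The single tested epididymis marker, Defb21, fell by 0.58 (adjusted p = 0.042). Over all genes 4.94% were called lower in KO against WT. The Defb21 call was lost without any 1 of the 6 arrays, and those of Adipoq and Retn without any 1 KO or WT array. Retn was also not called with no background correction, an offset of 50 or the authors' values, nor Defb21 with median scaling, the authors' values or undetected probes included.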
